A study of Homo sapiens with 12 samples.

Results

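The direct comparison of low and high thiosulfate sulfurtransferase (TST) used 8 of the 12 RNA-sequencing libraries of the series, 4 of HepG2 cells with TST silenced (shTST) and 4 of HepG2 cells that overexpress TST (overTST). HepG2 is a human hepatocellular carcinoma line. The shTST cells received a commercial lentiviral TST shRNA plasmid, and the overTST cells a lentiviral vector in which the CMV promoter drives a codon-optimized TST with an N-terminal Myc tag. Both lines were made by transduction and antibiotic selection, and both were kept in medium with 400 µM glycine for 24 h before RNA extraction. The sources used here do not say whether either line was a single clone, and an engineered line with an empty vector was not analysed here, so the TST level cannot be told apart from the vector, the promoter and the history of each line. The wild-type libraries took no part in the fit. Every gene that passed edgeR's filter on low counts in these 8 libraries was taken, 14454 of 57500. All differences are given as shTST minus overTST, so that a negative log2 fold change is a lower level with TST silenced.

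TST, also called rhodanese, is a mitochondrial enzyme that moves a sulfur atom from thiosulfate to cyanide and so turns cyanide into the less toxic thiocyanate. It shares its substrates with the sulfide oxidation pathway, in which the sulfide quinone oxidoreductase SQOR hands sulfide electrons to the respiratory chain. Cyanide at high levels blocks cytochrome c oxidase, the last complex of that chain, whose catalytic subunits are encoded by mitochondrial DNA. The comparison asks which functions stood apart when the enzyme that removes cyanide was low or high.

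Total counts were 27527854 to 33865386 in the shTST libraries and 22911380 to 27414142 in the overTST libraries. These ranges did not overlap (p = 0.0286 in a two-sided exact permutation test, which cannot give less with 4 libraries in each group). In shTST replicate 2, 24354 genes had at least 1 count, against 21107 to 22364 in the other 7 libraries. The first principal component held 36.7% of the variance and separated both groups, with overTST replicate 1 closest to the shTST libraries. All 13 HepG2 markers were found in every library. Of 12 markers of other cell types, 8 were below the filter, and PTPRC, CD3E, KRT5, SFTPC and INS had 0 or 1 count in each library. The 12 markers summed to 21.0 to 23.4 CPM (read counts scaled to a common library size) in shTST and 21.3 to 23.0 in overTST, most of it from PDGFRB. This sum was scaled by total counts alone. PECAM1, an endothelial marker, was called lower in shTST at 1.61 ± 0.167 CPM against 3.27 ± 0.217 (SD, n = 4 each), and its groups did not overlap (log2 fold change −1.02, edgeR adjusted p = 4.13e-05). COL1A1, a fibroblast marker, was at 0.819 to 1.67 CPM against 0.799 to 1.11 and did not pass (unadjusted p = 0.0243, edgeR adjusted p = 0.066). The part of such cells in the results was not tested. A trend with gene length ran through the whole comparison and is described at the end. Counts of called members are therefore given with and without a correction for it.

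TST was at 32.8, 33.4, 36.4 and 33.4 CPM in shTST replicates 1 to 4 and at 51.6, 55.6, 61.3 and 62.1 CPM in overTST replicates 1 to 4. Every shTST library lay below every overTST library (p = 0.0286, exact permutation, two-sided). The means were 34.0 ± 1.63 and 57.6 ± 4.95 CPM (SD, n = 4 each), a 1.69-fold difference (log2 fold change −0.76, standard error 0.061, edgeR quasi-likelihood adjusted p = 1.06e-08). The length correction made it −0.63. TST (ENSG00000128311) lies on chromosome 22 from 37010859 to 37020183, minus strand, on GRCh38. Because the transgene was codon-optimized, its reads may not align to the native locus, and total TST in overTST is not measured by these counts. In RNA from bulk cultures, fewer cells with a transcript and less of it per cell cannot be told apart.

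MPST, the neighbouring gene for the related enzyme 3-mercaptopyruvate sulfurtransferase, was at 142, 135, 162 and 159 CPM in shTST and at 158, 190.3, 176 and 187 CPM in overTST. The groups overlapped, and MPST was called lower (log2 fold change −0.25, standard error 0.060, edgeR adjusted p = 0.00247). The annotated exons of TST and MPST share 6 bases on opposite strands. A further relative, TSTD1, was below the filter.

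UCP2, an uncoupling protein of the inner mitochondrial membrane, was at 39.1, 41.3, 45.4 and 43.1 CPM in shTST and at 60.7, 69.9, 71.6 and 79.6 CPM in overTST. These groups did not overlap, and the log2 fold change was −0.73 (standard error 0.067, edgeR adjusted p = 4.7e-08). FST, the gene of follistatin, which binds and inactivates activins, was at 67.1, 72.1, 66.8 and 76.4 CPM in shTST and at 94.5, 104, 113 and 106 CPM in overTST. It too was lower in every shTST library (log2 fold change −0.56, standard error 0.056, edgeR adjusted p = 1.65e-07). MT-CO2, a catalytic subunit of cytochrome c oxidase, was at 6193, 5289, 4541 and 4566 CPM in shTST and at 8558, 8757, 8496 and 8565 CPM in overTST. The overTST values lay close together, whereas shTST ranged more widely, and the log2 fold change was −0.74 (standard error 0.070, edgeR adjusted p = 9.21e-08). A2M, the gene of the plasma protease inhibitor alpha-2-macroglobulin, went the other way, with 1606, 1255, 1611 and 1597 CPM in shTST and 877, 870.1, 1139.7 and 1283 CPM in overTST. Its log2 fold change was 0.54 (standard error 0.093, edgeR adjusted p = 0.000118), but shTST replicate 2 lay below overTST replicate 4.

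**Figure D1:**
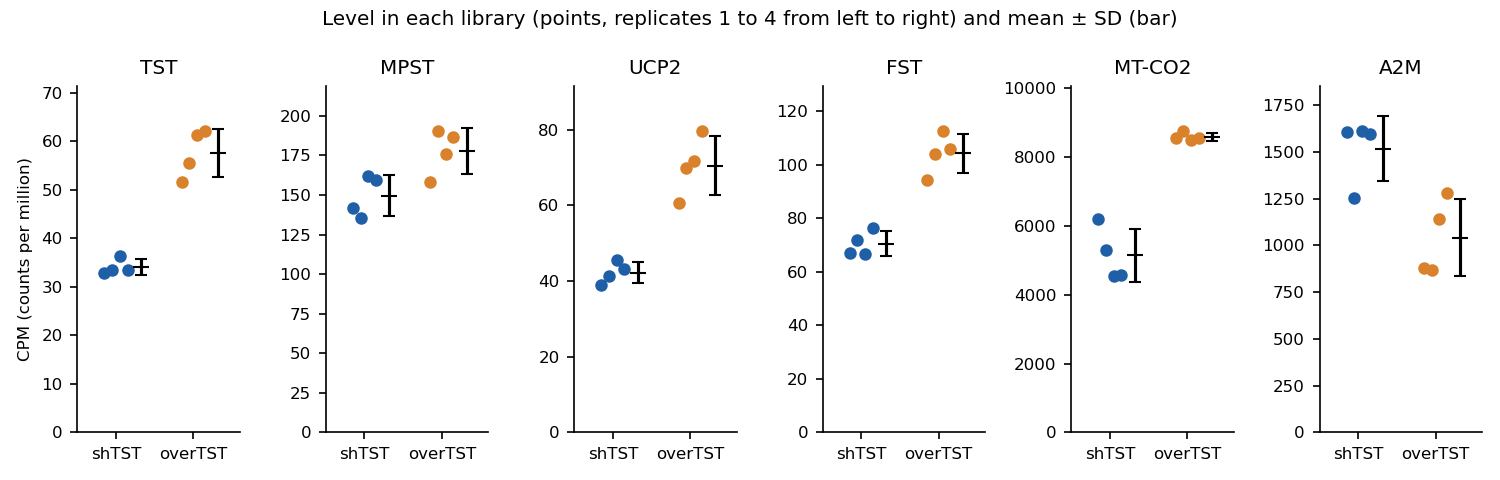
Level in CPM on a linear axis from 0 of TST, MPST, UCP2, FST, MT-CO2 and A2M in the 4 shTST and 4 overTST libraries, with each group's mean ± SD beside its points. TST, UCP2, FST and MT-CO2 were lower in every shTST library than in any overTST library, A2M was higher in shTST apart from replicate 2 at 1255 CPM, and the MPST groups overlapped.

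Of all genes tested, 4948 passed an adjusted p of 0.05 (34.2%), 2553 higher (17.7%) and 2395 lower (16.6%) in shTST. The biological coefficient of variation, the spread between replicates beyond counting error, was 5.72%. The study's methods define independent experiments as made on separate days, but neither they nor the labels say this of these libraries, so p-values measure the spread between them, which may be technical. Of all genes tested, 411 (2.84%) passed and differed by 1.5-fold or more, and 90 (0.623%) by 2-fold or more. In 4318 genes (29.9%) the libraries of both groups did not overlap. These shares are the background for the counts of each gene group, whose members were chosen for their function.

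**Figure D2:**
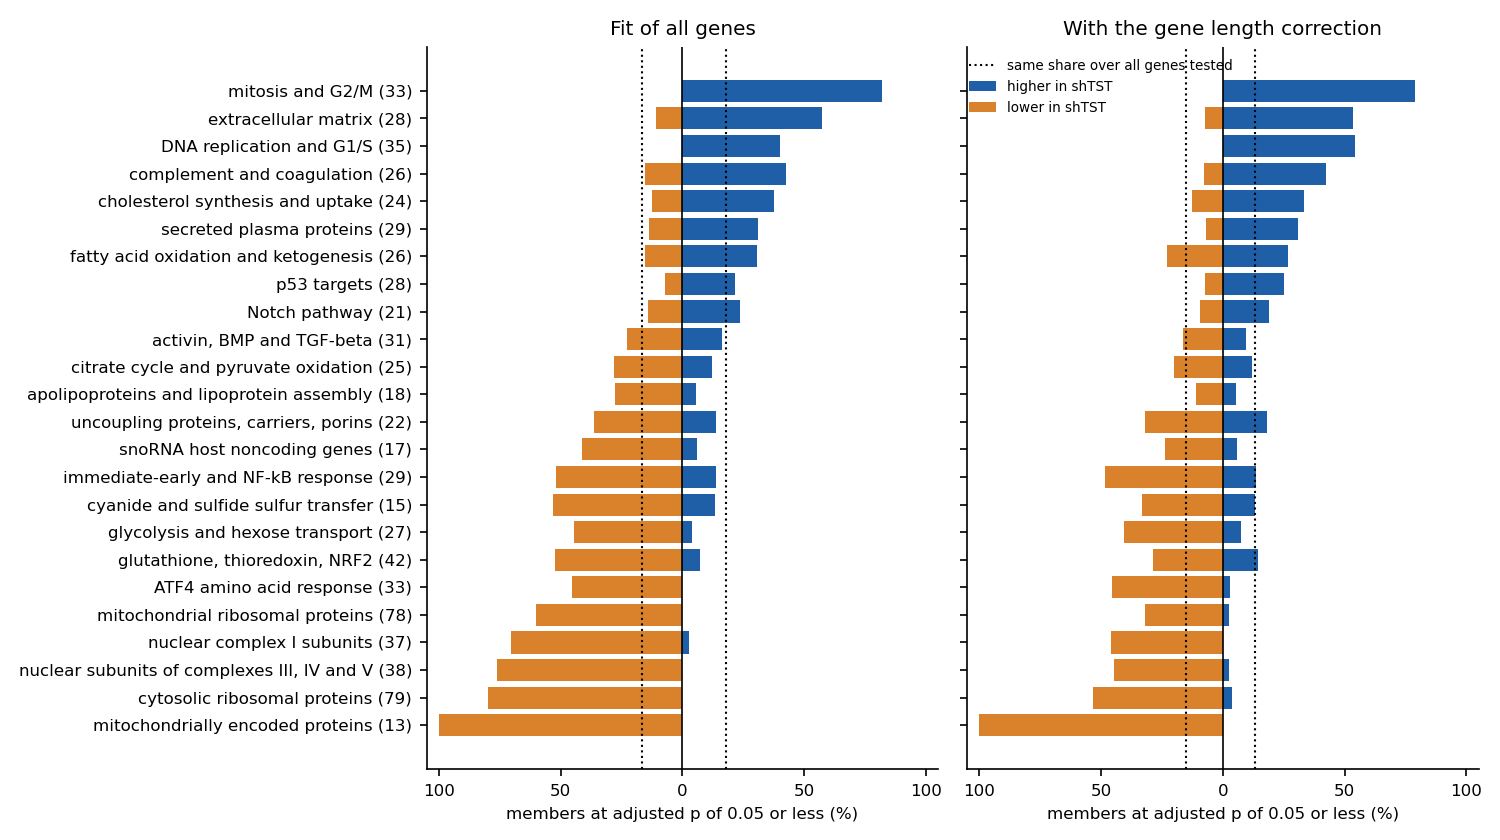
Share of tested members (number in brackets) of the gene lists drawn that were higher (right, blue) or lower (left, orange) in shTST at an adjusted p of 0.05 or less, in percent, without (left panel) and with (right panel) the gene length correction. The aryl hydrocarbon receptor, metallothionein, splicing and clustered histone lists and both lists of cell type markers are not drawn. Dotted lines give the same share over all genes tested. Mitosis, matrix and DNA replication genes lay mostly to the right and the mitochondrially encoded, respiratory chain and ribosomal genes to the left, and the left bars of the nuclear respiratory chain and ribosomal lists were shorter with the correction.

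Among the 15 tested genes of cyanide and sulfide sulfur transfer, 8 including TST were lower in shTST and 2 were higher, with a median log2 fold change of −0.19 beside 0.00 over all genes. After the length correction 5 were lower and 2 higher. SQOR was at 9.65 to 12.1 CPM in shTST and 14.5 to 18.2 in overTST (log2 fold change −0.48, edgeR adjusted p = 0.000286). GOT1, the cytosolic aspartate aminotransferase that also converts cysteine towards 3-mercaptopyruvate, was at 128, 124, 121 and 128 CPM in shTST and at 151, 161, 176 and 173 CPM in overTST (log2 fold change −0.40, standard error 0.050). CBS, which makes cystathionine and can release hydrogen sulfide, was lower too (log2 fold change −0.33, edgeR adjusted p = 0.0137). The 2 higher members had low counts. CDO1, the cysteine dioxygenase that takes cysteine towards taurine and sulfate, was at 3.17 to 3.88 CPM in shTST and 1.45 to 2.35 in overTST (log2 fold change 0.97, standard error 0.17). TSTD2, a protein with a rhodanese domain, was at 8.67 to 10.4 CPM against 5.64 to 6.72 (log2 fold change 0.64, standard error 0.097), and 28.4% of its exonic bases overlap TMOD1, which had few counts.

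The 13 protein genes of mitochondrial DNA all went one way. The 13 were lower in shTST, the groups did not overlap for any of them, and the log2 fold changes ran from −0.74 for MT-CO2 to −0.50 for MT-ND3 with a median of −0.66. MT-CO1, the subunit that holds the oxygen-binding site of cytochrome c oxidase, was at 18058, 15798, 16081 and 14663 CPM in shTST and at 26386, 27232, 25008 and 26980.5 CPM in overTST (log2 fold change −0.71, standard error 0.057, edgeR adjusted p = 1.06e-08). MT-ND4 of complex I was at 8705 to 11489 CPM against 15565 to 17138 (log2 fold change −0.74, standard error 0.064). MT-ND6, which is read from the other strand of mitochondrial DNA, was at 2913 to 3906 CPM against 4899 to 6145 (log2 fold change −0.65, standard error 0.073). In each of the 13, shTST replicate 1 was the highest of its group and so the nearest to overTST. All 13 kept their call with the length correction, where the median was −0.51, with each library left out in turn and under every other alternative that kept these genes.

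Taken as a share of all counts, mitochondrially encoded genes held 8.65, 7.61, 7.34 and 6.84% in shTST and 11.6, 11.7, 10.8 and 11.5% in overTST. The difference was −3.80 percentage points (two-sided exact permutation test, p = 0.0286). The 20 most counted genes held a median of 12.9% in shTST and of 16.1% in overTST. With the mitochondrially encoded genes left out before normalization, 4951 genes passed and the split between higher and lower genes was 51.0% higher against 51.6%. MTCO1P12, a nuclear pseudogene of MT-CO1 that can share reads with it, was at 47.6 to 64.2 CPM against 88.7 to 112 CPM (log2 fold change −0.86). The transfer RNA gene MT-TL2 was at 3.84 to 7.01 CPM against 9.99 to 15.0 CPM (log2 fold change −1.02).

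Most nuclear subunits of complexes I, III, IV and V were lower as well, by less. Of 37 complex I subunits 26 were lower and 1 higher in shTST (median log2 fold change −0.18), and of 38 subunits of complexes III, IV and V 29 were lower and 0 higher by edgeR (median −0.18). At an unadjusted p under 0.05, 1 of the 38 was higher, UQCRC2, and DESeq2 and limma-voom also called 0. With the length correction the counts fell to 17 lower and 0 higher for complex I and to 17 lower and 1 higher for the other complexes. NDUFS8, an iron-sulfur subunit of complex I, was at 75.2, 75.8, 79.8 and 77.9 CPM in shTST and at 90.0, 105, 107 and 107 CPM in overTST (log2 fold change −0.40, and −0.41 with the length correction). UQCRH, the hinge subunit of complex III, was at 120.1 to 128 CPM against 149 to 165 CPM (log2 fold change −0.36, and −0.21 with the correction). ATP5MK, a small subunit of ATP synthase, was at 57.8 to 60.7 CPM against 71.8 to 83.0 (log2 fold change −0.36, and −0.22 with the correction). The higher complex I gene was NDUFS1, the largest subunit, at 138 to 146 CPM against 124 to 132 (log2 fold change 0.16, edgeR adjusted p = 0.00689). That call was lost with the length correction (log2 fold change 0.01, adjusted p = 0.941).

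Among the uncoupling proteins, mitochondrial carriers and porins 8 of 22 were lower and 3 higher in shTST (7 and 4 with the length correction). Apart from UCP2 the lower ones differed by little. SLC25A39, the carrier that brings glutathione into mitochondria, was at 240.5 to 265 CPM against 283 to 321 (log2 fold change −0.29). The higher ones were carriers of aspartate, glutamate and ornithine. SLC25A15, the ornithine carrier of the urea cycle, was at 26.8 to 28.6 CPM against 19.2 to 24.5 (log2 fold change 0.35), and SLC25A13, an aspartate and glutamate carrier, at 99.3 to 106 CPM against 80.8 to 94.6 (log2 fold change 0.24). UCP1 and UCP3 were below the filter.

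In carbon metabolism the clearest group was glycolysis, with 12 of 27 genes lower and 1 higher in shTST (median −0.15, and 11 lower and 2 higher with the length correction). ALDOA, the muscle-type aldolase, was at 1936, 1981, 2316 and 1966 CPM in shTST and at 2554, 2864, 2937 and 3123 CPM in overTST (log2 fold change −0.49, standard error 0.061). GAPDH was at 2862 to 3123 CPM against 3532 to 4036 CPM (log2 fold change −0.35, edgeR adjusted p = 1.24e-05). The exception was SLC16A1, a lactate and pyruvate transporter, at 154 to 162 CPM against 119 to 142 (log2 fold change 0.28). Of 25 genes of the citrate cycle and pyruvate oxidation 7 were lower and 3 higher (5 and 3 with the correction), but no higher call was left without shTST replicate 4, without overTST replicate 2 or without overTST replicate 4, and 4 lower calls were left without shTST replicate 4. Of this list 40.0% was called in either direction, beside 34.2% over all genes tested. PC, the pyruvate carboxylase that refills the cycle, was at 82.6 to 88.2 CPM against 99.5 to 102 CPM (log2 fold change −0.23).

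Of 26 fatty acid oxidation and ketogenesis genes 8 were higher and 4 lower in shTST, with a median log2 fold change of 0.01, and the length correction left 7 higher and 6 lower. EHHADH, a bifunctional enzyme of peroxisomal beta-oxidation, was at 48.3 to 49.9 CPM in shTST and 31.8 to 41.7 in overTST (log2 fold change 0.43, standard error 0.067). ACADSB, an acyl-CoA dehydrogenase, was at 139 to 152 CPM against 113 to 124 (log2 fold change 0.30). ACAA1, the peroxisomal thiolase, was lower, at 126 to 141 CPM against 152 to 166 (log2 fold change −0.27). In cholesterol synthesis and uptake 9 of 24 genes were higher and 3 lower (8 and 3 with the correction). The higher ones included HMGCS1, an enzyme of the early steps, at 231 to 269 CPM against 173 to 193 (log2 fold change 0.47, edgeR adjusted p = 4.1e-07). Without overTST replicate 2 the higher members numbered 5, and without overTST replicate 1 the lower members numbered 8.

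Of 33 genes of the ATF4 amino acid response, which induces amino acid synthesis and transport when amino acids run short or mitochondria are stressed, 15 were lower and 0 higher by edgeR in shTST (median log2 fold change −0.15). At an unadjusted p under 0.05, 2 were higher, SLC38A2 and VLDLR, and DESeq2 and limma-voom also called 0. With the length correction 15 were lower and 1 higher, and the lower genes numbered 11 to 18 with a library left out. TRIB3, a pseudokinase induced by ATF4, was at 156, 151, 165 and 148 CPM in shTST and at 189, 191, 220.3 and 236 CPM in overTST (log2 fold change −0.43, standard error 0.059). ASNS, the asparagine synthetase, was at 46.1 to 56.2 CPM against 56.3 to 76.1 (log2 fold change −0.36, edgeR adjusted p = 0.000867). DDIT3, the gene of the stress factor CHOP, was at 3.74 to 4.81 CPM against 5.55 to 7.86 (log2 fold change −0.69), but 28.0% of its exonic bases overlap the far more counted MARS1 on the opposite strand, and the use of strand in the authors' counting is not given in the sources used here. GDF15, a secreted stress hormone induced by ATF4 and by p53, was among the strongest differences, at 112, 108, 109 and 108 CPM in shTST and 159, 184, 222 and 225 CPM in overTST (log2 fold change −0.85, standard error 0.073). Of 28 p53 targets as a whole, 6 were higher and 2 lower (7 and 2 with the length correction). The share called, 28.6%, was below the 34.2% over all genes tested.

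Antioxidant genes of the glutathione, thioredoxin and NRF2 systems were lower in 22 of 42 cases and higher in 3, with a median log2 fold change of −0.12. The length correction left 12 lower and 6 higher. GLRX, the cytosolic glutaredoxin, was at 52.0 to 57.7 CPM against 71.8 to 82.7 (log2 fold change −0.47, and −0.53 with the correction). PRDX5, a peroxiredoxin found in mitochondria, was at 171 to 192 CPM against 199.7 to 245 (log2 fold change −0.36, and −0.21 with the correction). NFE2L2, the gene of NRF2 itself, was slightly higher in shTST, at 151 to 172 CPM against 129.6 to 153, with overlapping groups (log2 fold change 0.19, edgeR adjusted p = 0.00819). Among the genes of glutathione synthesis GSS was lower (log2 fold change −0.19), and GCLC and GCLM did not pass the test (log2 fold changes 0.09 and 0.00).

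**Figure D3:**
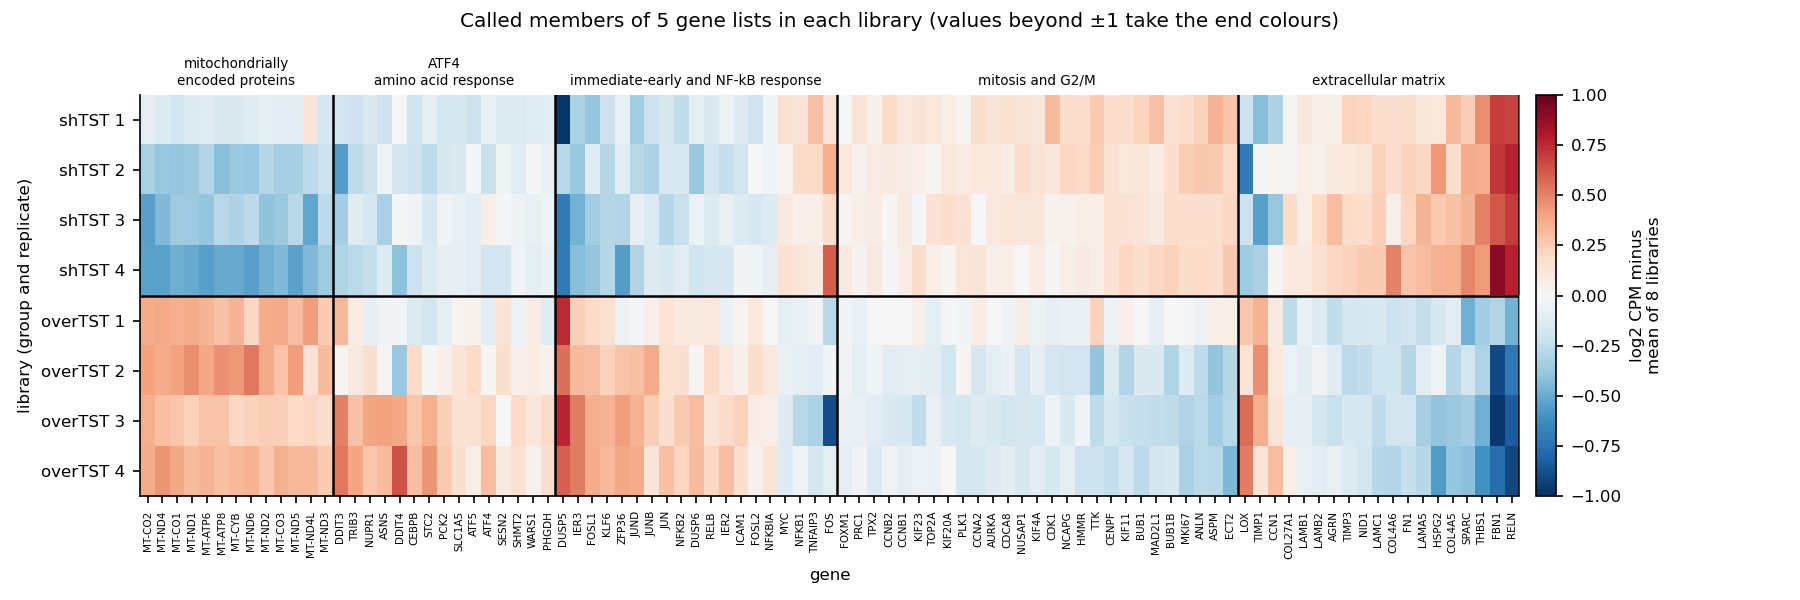
Log2 CPM of each called member of 5 gene lists (columns) in each of the 8 libraries (rows), as the difference from the gene's mean over the 8 libraries, from −1 (blue) to 1 (red). The mitochondrially encoded, ATF4 and most immediate-early genes were lower in the shTST rows, and the mitosis genes and most matrix genes were higher there, with overTST replicate 1 paler than the other overTST libraries for mitosis and ATF4 genes.

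Most tested genes of mitosis, and fewer of DNA replication, were higher in shTST than in overTST. Of 33 genes of mitosis and G2/M 27 were higher and 0 lower by edgeR in shTST (median log2 fold change 0.19), and none was lower at an unadjusted p under 0.05 or by DESeq2 or limma-voom. Of 35 genes of DNA replication and G1/S 14 were higher and 0 lower by edgeR (median 0.13), while E2F1 was lower at an unadjusted p under 0.05 and DESeq2 and limma-voom called 0. With the length correction the higher members numbered 26 and 19. With a library left out they ranged from 20 to 28 and from 10 to 18. ANLN, which scaffolds the contractile ring of dividing cells, was at 77.9, 80.0, 74.4 and 76.1 CPM in shTST and at 63.7, 55.8, 55.2 and 55.1 CPM in overTST (log2 fold change 0.42, standard error 0.053, edgeR adjusted p = 3.75e-06). Replicate 1 was the highest of the overTST libraries and still lay below all shTST libraries. MKI67, the gene of the proliferation marker Ki-67, was at 321 to 339.9 CPM against 229.5 to 284 (log2 fold change 0.38, and 0.22 with the correction). CCNE1, the cyclin that starts DNA replication with CDK2, was at 40.8 to 44.3 CPM against 29.1 to 34.4 (log2 fold change 0.40), and DTL, which marks the licensing factor CDT1 for destruction, was at 59.7 to 64.2 CPM against 45.4 to 53.4 (log2 fold change 0.33). The clustered histone genes, whose messages rise in S phase and mostly lack a poly(A) tail, had 4 of 25 tested members lower, a share near the background, and 0 higher by edgeR (none higher at an unadjusted p under 0.05, by DESeq2 or by limma-voom). The 4 became 1 with DESeq2, 0 with the length correction and 0 without shTST replicate 1. All 65 listed, scaled by total counts without the normalization between libraries, summed to 49.8 to 52.4 CPM in shTST and 51.8 to 53.5 in overTST. The groups overlapped on that scale, and the sum on the normalized scale was not tested.

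Many genes of mitosis are controlled through CCAAT boxes and a TTTGAA element (the cell cycle genes homology region) close to the start of transcription. The letters CCAAT, which read ATTGG on the other strand, and TTTGAA, which on the other strand become TTCAAA, were looked for in the 250 bases before the start of each gene in the RefSeq promoter table on GRCh38.p14, taking the window with the lowest coordinates where a gene had several. Of the 33 mitosis genes 27 had a window. CCAAT was in 23 of them (85.2%) beside 32.9% of all 27305 genes with a window, and TTTGAA in 18 (66.7%) beside 13.7%. Both were in 15 (55.6%) beside 4.86% of all genes, in 13 of the 23 that were higher in shTST and in 2 of the 4 that did not pass. For the ATF4 genes, the letters TGATGNAA of its composite element were in 3 of 28 windows (10.7%) beside 3.26%, in 1 of the 13 that were lower in shTST and in 2 of the 15 that were not. The 120 bases before the start are shown for 4 mitosis genes with both elements there, with the elements in capitals on the gene's strand. Some genes were left out before these were picked by smallest p, so they need not be the first of the whole list. In MKI67 the last TTTGAA and the ATTGG after it overlap.
MKI67 (chr10:128126424-128126543, minus strand): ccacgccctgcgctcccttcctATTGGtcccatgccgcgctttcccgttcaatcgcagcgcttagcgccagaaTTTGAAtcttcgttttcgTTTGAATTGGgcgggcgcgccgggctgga
ECT2 (chr3:172750606-172750725, plus strand): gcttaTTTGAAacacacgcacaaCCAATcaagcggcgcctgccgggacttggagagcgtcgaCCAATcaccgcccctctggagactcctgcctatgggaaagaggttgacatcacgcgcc
ASPM (chr1:197146670-197146789, minus strand): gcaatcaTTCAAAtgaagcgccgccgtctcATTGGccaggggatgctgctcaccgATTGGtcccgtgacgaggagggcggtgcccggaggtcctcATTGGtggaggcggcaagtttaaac
KIF11 (chr10:92593010-92593129, plus strand): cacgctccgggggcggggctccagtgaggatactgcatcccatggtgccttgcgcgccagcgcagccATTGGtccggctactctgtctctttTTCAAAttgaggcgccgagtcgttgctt

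ECT2, which activates the GTPase that drives the contractile ring, was at 43.6, 40.8, 41.3 and 42.9 CPM in shTST and at 37.1, 29.3, 29.4 and 26.1 CPM in overTST (log2 fold change 0.46). ASPM, a spindle pole protein, was at 36.2 to 41.2 CPM against 24.6 to 33.8 (log2 fold change 0.46), and KIF11, the kinesin that pushes spindle poles apart, was at 81.6 to 87.3 CPM against 61.8 to 78.7 (log2 fold change 0.31). In all 3 genes overTST replicate 1 was the highest of its group, and no library of one group reached the other.

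Extracellular matrix genes were mostly higher in shTST. Of 28 tested, 16 were higher and 3 lower (median log2 fold change 0.29), and 15 were higher and 2 lower with the length correction. RELN, the gene of the secreted glycoprotein reelin, was at 434, 463, 442 and 466 CPM in shTST and at 195, 166, 152 and 144 CPM in overTST (log2 fold change 1.46, standard error 0.065, edgeR adjusted p = 1.77e-13). THBS1, the matrix protein thrombospondin 1, was at 198, 184, 202 and 192 CPM against 112, 116, 103 and 94.3 CPM (log2 fold change 0.87, standard error 0.055). Chosen after its values were seen, FBN1 (fibrillin 1) had few counts, at 4.48 to 5.40 CPM against 1.49 to 2.38 (log2 fold change 1.42). The abundant FN1 (fibronectin), named in the same way, was at 6177 to 6679 CPM against 4506 to 4796 (log2 fold change 0.45, and 0.27 with the correction). Among the lower members, TIMP1, an inhibitor of matrix metalloproteinases, was at 38.1 to 54.9 CPM against 60.9 to 76.4 (log2 fold change −0.65), and LOX, which crosslinks collagen, was at 10.8 to 15.2 CPM against 19.3 to 25.7 (log2 fold change −0.73).

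**Figure D4:**
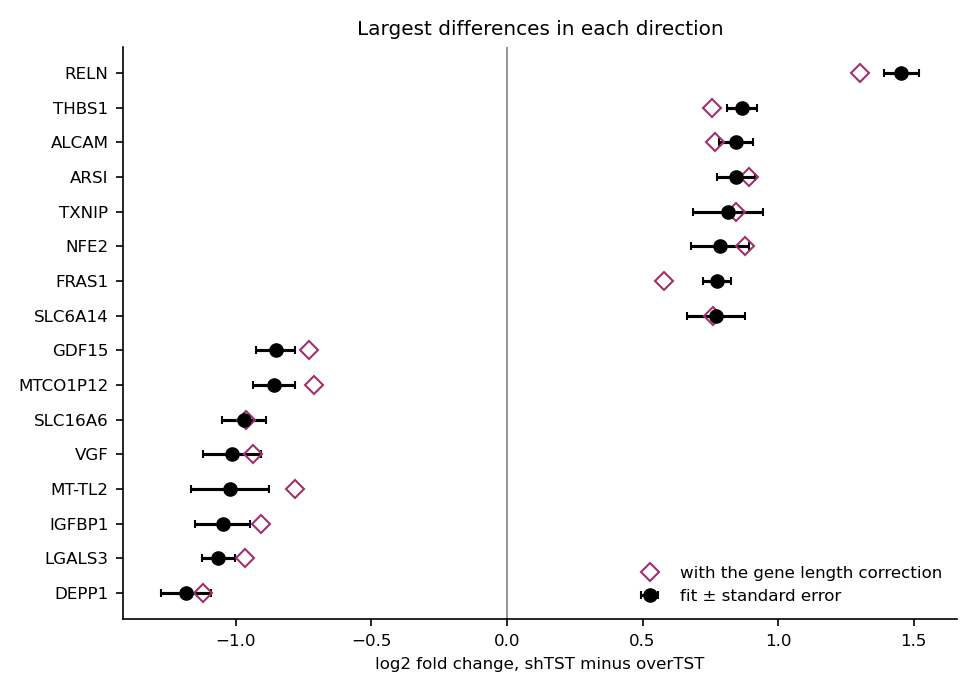
Log2 fold change of shTST minus overTST with its standard error (black) for the 16 well counted genes that differed most, 8 in each direction, and the same with the gene length correction (open diamonds). RELN stood furthest to the right at 1.46 and DEPP1 furthest to the left at −1.18, and the correction moved none of the 16 across 0.

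Among genes with a symbol, an average log2 CPM of at least 3 and no overlap between groups, the largest higher differences after RELN and THBS1 were in ALCAM, a cell adhesion molecule (log2 fold change 0.85), the sulfatase gene ARSI (0.84), TXNIP, which binds thioredoxin (0.81), the transcription factor gene NFE2 (0.79), FRAS1, a basement membrane protein (0.78), and the amino acid transporter gene SLC6A14 (0.77). TXNIP varied most among them, at 24.4, 27.7, 24.9 and 25.7 CPM in shTST and at 18.2, 18.8, 11.5 and 9.58 CPM in overTST. On the lower side DEPP1, a target of FOXO factors, was at 9.18 ± 0.927 CPM against 20.8 ± 2.48 (SD, n = 4 each, log2 fold change −1.18), with 23.3% of its exonic bases shared with RASSF4 on the opposite strand. LGALS3, the lectin galectin 3, was at 32.5, 28.6, 30.6 and 27.9 CPM in shTST and at 59.5, 58.9, 65.8 and 66.0 CPM in overTST (log2 fold change −1.06, standard error 0.060, edgeR adjusted p = 1.89e-11). IGFBP1, a binding protein of insulin-like growth factors that the liver secretes, was at 59.5, 42.7, 64.4 and 50.6 CPM against 111, 86.2, 123 and 129 CPM (log2 fold change −1.05, standard error 0.10). VGF, a neuropeptide precursor, and SLC16A6, a monocarboxylate transporter, followed at −1.02 and −0.97.

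The largest difference of all genes tested was in ENSG00000259001, named after its values were seen because it has no gene symbol of its own. It is annotated as an antisense transcript on chromosome 14 from 20343048 to 20343685, minus strand, on GRCh38, and holds RPPH1, the gene of the RNA of ribonuclease P, on the same strand. ENSG00000259001 was at 13.2, 9.47, 13.3 and 11.9 CPM in shTST and at 0.149, 0.0421, 0.0785 and 0.318 CPM in overTST. Reads were assigned to it in every shTST library and hardly any in the overTST libraries (log2 fold change 6.35, standard error 0.24, edgeR adjusted p = 7.48e-15). RPPH1 had 0 counts in all 8 libraries, and reads that fit both annotations cannot be told apart. The promoter of RPPH1, known as the H1 promoter, is part of many shRNA vectors. Which promoter the TST shRNA plasmid carries is not given in the sources used here, so reads of the vector and of the native locus cannot be told apart, and the value is not a measure of the native transcript alone.

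Among hepatocyte products the direction depended on the protein. Complement and coagulation genes were higher in 11 of 26 cases and lower in 4 (median log2 fold change 0.18, and 11 and 2 with the length correction). C5, the precursor of the C5a peptide and of the membrane attack complex, was at 101 to 114 CPM against 75.6 to 81.9 (log2 fold change 0.47), and coagulation factor F5 at 86.5 to 93.6 CPM against 50.7 to 64.6 (log2 fold change 0.58). The fibrinogen chains were higher too, FGG at 529, 516, 531 and 517 CPM in shTST and at 387, 348, 365 and 375 CPM in overTST (log2 fold change 0.51, standard error 0.044) and FGB with the same log2 fold change. Over the 29 secreted plasma proteins 9 were higher and 4 lower (9 and 2 with the correction, and 6 higher with limma-voom). TTR, the thyroid hormone carrier transthyretin, was lower, at 71.8 to 80.8 CPM against 98.3 to 113 (log2 fold change −0.50), and so was its partner RBP4, which carries retinol (log2 fold change −0.32, groups overlapping). Of 18 apolipoprotein and lipoprotein assembly genes 5 were lower (APOA2, APOC1, APOC2, APOC3 and APOM, whose exons overlap BAG6), and the 1 higher gene was APOB, at 6521 to 7098 CPM against 4921 to 5983 CPM (log2 fold change 0.36, and 0.19 with the correction). The 5 became 2 with the length correction, 3 without shTST replicate 2 and 8 without overTST replicate 1. Of this list 33.3% was called in either direction, near the 34.2% over all genes tested. Of the 13 HepG2 markers 4 were higher (AFP, ALB, GPC3 and HNF4A) and 4 lower (TTR, FOXA2 and the keratin genes KRT8 and KRT18, whose exons overlap). With limma-voom 1 marker was higher, and the length correction left both counts at 4.

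Genes of signalling pathways gave a mixed picture except for the immediate-early and NF-kB response, where 15 of 29 were lower and 4 higher in shTST (median log2 fold change −0.24, and 14 and 4 with the length correction). IER3, an early response gene that limits apoptosis, was at 69.7, 66.6, 62.4 and 64.5 CPM in shTST and at 102, 109, 123 and 124 CPM in overTST (log2 fold change −0.80, standard error 0.058). KLF6, a zinc finger factor, was at 53.1 to 56.1 CPM against 71.9 to 82.4 (log2 fold change −0.53). Chosen after its values were seen, DUSP5, a phosphatase that switches off ERK in the nucleus, was at 1.96 to 3.17 CPM against 5.64 to 6.51 (log2 fold change −1.31). FOS went against the group at 2.07 to 2.88 CPM against 1.02 to 1.85 (log2 fold change 0.62, edgeR adjusted p = 0.0157). So did the better counted MYC, at 135 to 147 CPM against 121 to 127 (log2 fold change 0.21, edgeR adjusted p = 0.000887). NFKB1 was also higher, at 50.1 to 54.7 CPM against 39.8 to 46.7 (log2 fold change 0.24, edgeR adjusted p = 0.00203).

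In the activin, BMP and TGF-beta pathway 7 of 31 genes were lower and 5 higher, close to the background in each direction (5 and 3 with the length correction). Without shTST replicate 4 the higher genes numbered 3. Besides FST, the lower genes included the ligand TGFB1 (log2 fold change −0.27). BMP6, named after its values were seen, had the largest change of the list at very low counts, 0.0867 to 0.167 CPM against 0.409 to 0.863 (log2 fold change −2.20, standard error 0.42). The higher genes included both TGF-beta receptors, TGFBR2 at 129 to 146 CPM against 103 to 120.2 (log2 fold change 0.33) and TGFBR1 at 22.2 to 27.5 CPM against 17.3 to 21.8 (log2 fold change 0.32). The Notch pathway had 5 of 21 genes higher and 3 lower (4 and 2 with the correction). Its share called in either direction, 38.1%, was also near the 34.2% over all genes tested. The receptor gene NOTCH2 was at 19.5 to 21.5 CPM against 9.77 to 13.6 (log2 fold change 0.77), the sheddase gene ADAM10 at 97.3 to 103 CPM against 69.3 to 82.4 (log2 fold change 0.39), and the Notch target HEY1 was lower at 2.02 to 2.71 CPM against 4.46 to 5.22 (log2 fold change −0.96).

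Ribosomal protein genes were lower in shTST in great number and by little. Of 79 cytosolic ribosomal proteins 63 were lower and 0 higher by edgeR (median log2 fold change −0.19, none higher at an unadjusted p under 0.05, by DESeq2 or by limma-voom), and of 78 mitochondrial ones 47 were lower and 0 higher (median −0.18, 2 higher at an unadjusted p under 0.05, MRPL44 and MRPS27, and none by DESeq2 or limma-voom). After the correction 42 and 25 were lower and 3 and 2 higher. RPS3 was at 1819, 1822, 1837 and 1829 CPM in shTST and at 2139, 2321, 2365 and 2259 CPM in overTST (log2 fold change −0.31, and −0.37 with the correction). MRPL12, of the large mitochondrial subunit, was at 73.9 to 82.1 CPM against 93.4 to 105 (log2 fold change −0.39, and −0.24 with the correction). Noncoding hosts of small nucleolar RNAs, which are made together with ribosomal parts, were lower in 7 of 17 cases and higher in 1 (4 and 1 with the correction). In the aryl hydrocarbon receptor pathway 2 of 6 genes (33.3%, beside 34.2% over all genes tested) were higher. By edgeR 0 were lower (CYP1A1 lower at an unadjusted p under 0.05, none by DESeq2 or limma-voom). The 2 became 1 with the length correction and 0 without overTST replicate 3. Of 10 metallothionein and zinc response genes 2 were higher and 2 lower (3 and 1 with the correction), and of 20 genes of cold-inducible RNA-binding proteins and splicing 2 were higher and 2 lower (4 and 4 with the correction). Without the correction, the share of the splicing list called in either direction was below the 34.2% over all genes tested. That of the short metallothionein list was slightly above it.

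The trend with gene length ran over the genes tested as a whole, and the correction for it changed some of these groups more than others. Over the genes tested, log2 fold change and exonic length had a Spearman rho of 0.37, given as a description because genes are not independent. Among 904 genes with at most 1000 exonic bases the median log2 fold change was −0.15, and 12 were higher and 138 lower, whereas among 2572 genes with over 8000 bases it was 0.14, and 994 were higher and 184 lower. In each library the rho of exonic length with the deviation from the mean of the 8 libraries was 0.256, 0.301, 0.167 and 0.263 in shTST and −0.0740, −0.302, −0.279 and −0.305 in overTST. The groups did not overlap (two-sided exact permutation test, p = 0.0286), and overTST replicate 1 stood apart from its group. With the trend removed in each library, 4096 genes passed, of which 3300 were among the 4948. Respiratory chain, ribosomal and mitochondrially encoded genes are short and matrix genes long, with median exonic lengths of 2263 bases for complex I, 784 for the mitochondrial genes and 8273 for the matrix list, against 4474 over all genes tested. In these 8 libraries the trend cannot be told apart from the groups, and its part in the other results was not tested beyond the correction.

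**Figure D5:**
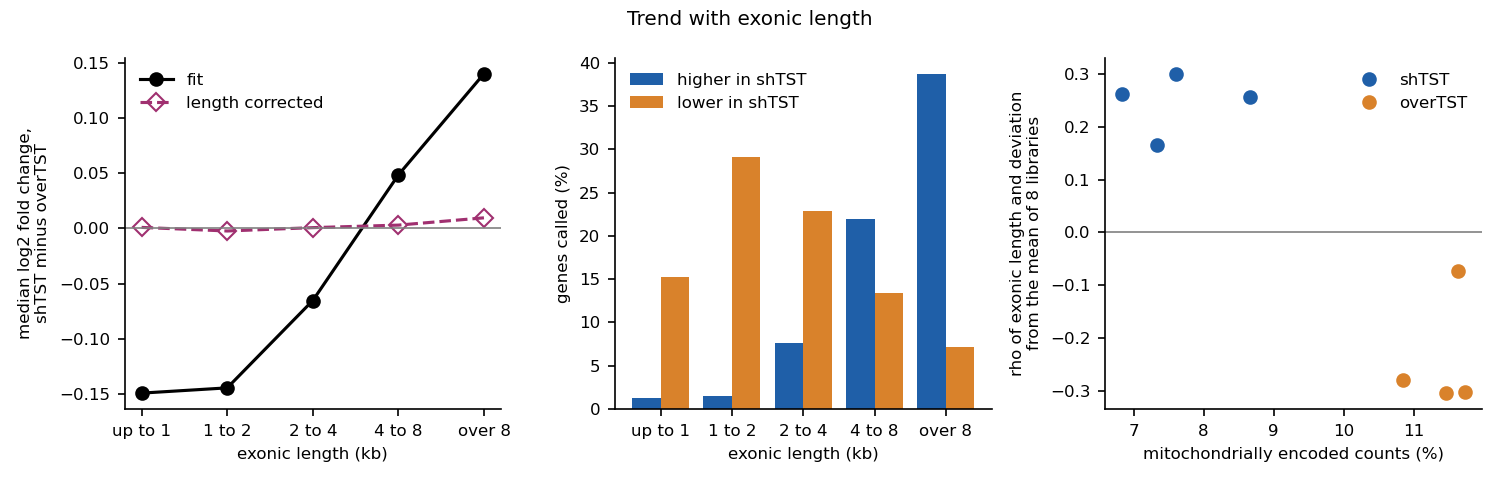
Left, median log2 fold change of shTST minus overTST in 5 classes of exonic length in kilobases, as fitted (black) and with the length correction (diamonds); middle, percent of genes in each class called higher (blue) or lower (orange) in shTST; right, for each library, the rho of exonic length with the deviation from the mean of 8 libraries against the percent of counts on mitochondrially encoded genes. The medians rose from −0.15 to 0.14 with length, and both groups lay apart on both axes of the right panel, with overTST replicate 1 at −0.0740.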

How the data were processed

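RNA of HepG2 cells was sequenced in 12 libraries, 8 of which were compared here. Per the labels and processing notes, the authors trimmed reads with Trimmomatic 0.36, aligned them to GRCh38 with STAR 2.5.2b and counted them with featureCounts of Subread 1.5.2. The deposited values are raw counts of reads per gene for 57500 genes in each library. The annotation release and the use of strand are not given in the sources used here. Groups came from the sample titles. Exonic lengths, and the exon positions that gave the overlaps, came with the deposited counts. Symbols came from a list of current gene names and, where that had none, from GENCODE 29. That release held 56898 of the identifiers, and 54784 had the same start and end there.

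Genes that passed filterByExpr were normalized by the trimmed mean of M values and compared by edgeR 4.0.16's quasi-likelihood test (R 4.3.3) without covariates, with Benjamini-Hochberg adjustment over all 14454 genes and a threshold of 0.05. CPM values use the same normalization, apart from the sums over a list, which were scaled by total counts alone. The length correction removed a lowess curve (span 0.3) of log2 CPM on exonic length from each library through offsets. Single values were compared by two-sided exact permutation tests (SciPy 1.17.1). The code was tested on simulated data. Alternatives were DESeq2 1.42.0, limma-voom (limma 3.58.1), other normalizations and filters, the fit of all 12 libraries, corrections for length and GC content, a replicate block, and each library left out.

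The genes named are TST, MPST, TSTD1, UCP2, FST, MT-CO2, A2M, in each direction the 8 called genes of largest log2 fold change whose groups did not overlap, which had a symbol and whose log2 CPM averaged at least 3, and up to 2 called members of each list in each direction with the smallest p. Other names say so or were taken as members after their values were seen. The members and lists were chosen with earlier results of these data known. Counting error is covered by the fits, and total counts per library are given in the report. Levels of sex-linked genes are not reported here. Some genes that the naming rule picks are not reported here.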

Additional observations from a re-analysis of the deposited data

Results flagged for a closer look

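Among 238 groups of 4 libraries, 14 held 1 library farther from the others than Dixon's limit on its gap, as a share of the range, allows. Chance gives about 5.0% of groups, so a number of this size is near what chance gives.

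In shTST, replicate 3 was high for TST, at 36.4 CPM against 32.8 to 33.4 in the other replicates, and for ALDOA, at 2316 CPM against 1936 to 1981. Replicate 2 was low for A2M, at 1255 CPM against 1597 to 1611, which is why the A2M groups overlapped. Replicate 1 was high for GDF15, at 111.8 CPM against 108.2 to 108.8, and for KLF6, at 56.1 CPM against 53.1 in the other replicates. Replicate 4 was high for FRAS1, at 100.1 CPM against 93.8 to 94.5.

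In overTST, replicate 1 stood apart towards the shTST level in 4 values. It was at 90.0 CPM for NDUFS8 against 104.9 to 106.8, at 93.4 CPM for MRPL12 against 103.8 to 105.5, at 63.7 CPM for ANLN against 55.1 to 55.8, and at −0.0740 for the rho of exonic length against −0.305 to −0.279. Replicate 3 was high for GLRX, at 82.7 CPM against 71.8 to 72.0. It was low for the share of counts on the 20 most counted genes, at 15.5% against 16.1%, and on the most counted gene, at 2.43% against 2.59 to 2.61%. Replicate 4 was low for ARNT, at 23.9 CPM against 25.5 to 25.7.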

How the results depend on the processing

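The count of called genes was 4948 and ranged from 4570 without the filter to 5118 with a replicate block, apart from 4096 with the length correction, 4513 with the GC correction, 4359 with the block and the length correction together, and 4023 (without overTST replicate 3) to 5544 (without overTST replicate 1) with 1 library left out. Genes 2-fold or more higher in shTST numbered 22 with DESeq2, 69 without the filter and 16 with more than 1 CPM in at least 4 libraries. Those 2-fold or more lower numbered 96 without the filter, 23 with the 1 CPM filter, and 31 with the length correction, with or without the block. The cause was not tested. The mitochondrial share differed by −4.15 to −3.55 points with a library left out, where 3 against 4 libraries cannot reach p below 0.0571. Of the 110 named genes, SDHC reversed to −0.0338 with the length correction and to −0.0339 with the block as well, and 17 genes lost their call under at least 1 setting, 16 under other alternatives (among them NDUFS1, GPC3, ARNT and H4C9) and 11 with a library left out. Of the 4513 genes called with the GC correction, 3528 were among the 4948. With that correction 0 citrate cycle genes were higher and 9 lower, and the median log2 fold change was −0.075 for glycolysis. For the HepG2 markers the median was 0.085, beside −0.048 without it. Depth limits genes of few counts.

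Replicate numbers are shared by both groups, but deviations of same-numbered libraries correlated at −0.0037 to 0.0348. Not every library correlated best with its own number, and the main fit used no pairing. With so few libraries these values cannot tell whether same-numbered libraries shared a day or batch. With a replicate block 5118 genes passed, 4885 of them among the 4948.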

Other observations

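The 4 wild-type libraries took no part in the comparison, and their levels are given as values, with all 12 libraries normalized together. Of the 110 named genes, the wild-type mean lay between the shTST and overTST means for 72, above both for 24 and below both for 14. Of those higher in shTST it lay between for 27, above both for 20 and below both for 2, and of those lower in shTST for 45, 4 and 12.

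TST was at 47.2 to 52.8 CPM in wild type. UCP2 was at 37.9 to 42.2 CPM in wild type, within or below the shTST range of 39.3 to 45.6, whereas FST was at 98.9 to 110.3 CPM, inside the overTST range of 95.0 to 113.3. MT-CO2 spread from 5075.5 to 9423 CPM in wild type, wider than either engineered group. That range ran from within the shTST range of 4556 to 6225 to above the overTST range of 8548 to 8820. RELN was at 409 to 507 CPM in wild type beside 436 to 468 in shTST and 144 to 196 in overTST. DEPP1 was at 16.4 to 24.7 CPM in wild type beside 18.5 to 23.5 in overTST. THBS1 lay between, at 127 to 169 CPM, and SLC6A14 lay above both groups, at 19.9 to 23.4 CPM. Of the mitosis genes, ANLN was at 76.7 to 83.2 CPM in wild type beside 74.7 to 80.4 in shTST and 55.2 to 64.0 in overTST. MKI67 was at 317 to 375 CPM beside 322 to 341 and 230 to 285. For the DNA replication genes CCNE1 and DTL the wild-type mean lay between. None of these differences from wild type was tested here.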
